A study of Mus musculus with 4 samples.

Results

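A set of 9 genes that steer follicular B (FOB) cells into and out of lymphoid follicles was followed in splenic FOB cells of WT and Hnrnpf bKO mice. They were chosen by name, as the chemokine receptors Cxcr5, Ccr7, Cxcr4 and Ccr6, the sphingosine-1-phosphate receptors S1pr1 and S1pr4, the oxysterol receptor Gpr183 (EBI2) and the integrin chains Itgal and Itgb7, and all 9 members were found among the 55401 genes of the count table. Each group had 2 libraries of poly(A) mRNA from cells sorted as B220+CD93-CD23highCD21low from the spleens of C57BL/6 mice aged 7 weeks. Both groups were Hnrnpf fl/fl. WT mice had no Cre, and Hnrnpf bKO mice (labelled HFKO) carried a Cre expressed in B cells, which removes exon 4 of Hnrnpf. Hnrnpf encodes hnRNP F, an RNA-binding protein that regulates splicing. The loss of hnRNP F and the presence of the Cre allele cannot be told apart in this design. The libraries come from a single experiment, and whether a library held cells of a single mouse or of several is not given in the sources used here. The p-values therefore measure the spread between these libraries, which may be technical. The test used estimates the spread of a gene in part from the other genes.

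FOB cells recirculate between blood and the follicles of spleen and lymph nodes. CXCR5 and its ligand CXCL13 bring them into the follicle, CCR7 draws them toward the T cell zone, and EBI2 places them at the outer follicle in response to oxysterols. S1PR1 senses sphingosine-1-phosphate and lets them leave, and the integrins LFA-1 and α4β7 hold them on vessel walls during entry.

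The WT libraries held 16360435 and 18908963 counts and the Hnrnpf bKO libraries 15698567 and 18074619, and the 9 genes together took between 0.263% and 0.269% of each library. Levels are given as CPM, counts scaled to the size of the library, after TMM, a further scaling between libraries whose factors lay between 0.992 and 1.007. Hnrnpf itself had WT counts of 5780 and 6634 and Hnrnpf bKO counts of 1167 and 1194, which is a log2 fold change of -2.32 ± 0.06 (SE) with 0.201 of the WT level remaining, and every library matched its label. A gene was called where edgeR's quasi-likelihood test gave a Benjamini-Hochberg adjusted p of at most 0.05 over the 14123 genes tested. B cell markers were abundant, with summed levels of 6903 and 6969 CPM in WT and 6829 and 6910 CPM in Hnrnpf bKO, and 1 of 4 was called, lower in Hnrnpf bKO. Cr2, which encodes the CD21 used in the sort and was singled out after its values were seen, had WT counts of 17733 and 17145 and Hnrnpf bKO counts of 11268 and 12796. Fcer2a, which encodes the CD23 used in the sort and was also named afterwards, went the other way and was called higher. Its levels were 1278 and 1263 CPM in WT and 1421 and 1532 CPM in Hnrnpf bKO.

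Of the 9 genes, 3 were called: Cxcr4 was higher in Hnrnpf bKO, and S1pr1 and Itgal were lower. The other 6, among them Cxcr5 and Ccr7, did not pass the test, and no change reached 2-fold. Over all genes tested, 6.97% were called, 4.15% higher and 2.83% lower. The 9 genes are abundant, and among the 1803 tested genes with a mean count at least that of the least abundant of them, 16.1% were called. Genes called with a change of at least 2-fold made up 0.899% of those tested, and the 9 genes gave 0. The median log2 fold change was -0.07 over the 9 genes and -0.00 over all genes tested. The median size of the change, sign left aside, was 0.10 over the 9 genes and 0.08 over the 1803 genes of like depth. Groups of libraries did not overlap in 5 of the 9 genes, 1 higher and 4 lower, against 50.1% of all genes tested. In bulk RNA a change in the share of cells that use a gene and a change in RNA per cell cannot be told apart.

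**Figure D1:**
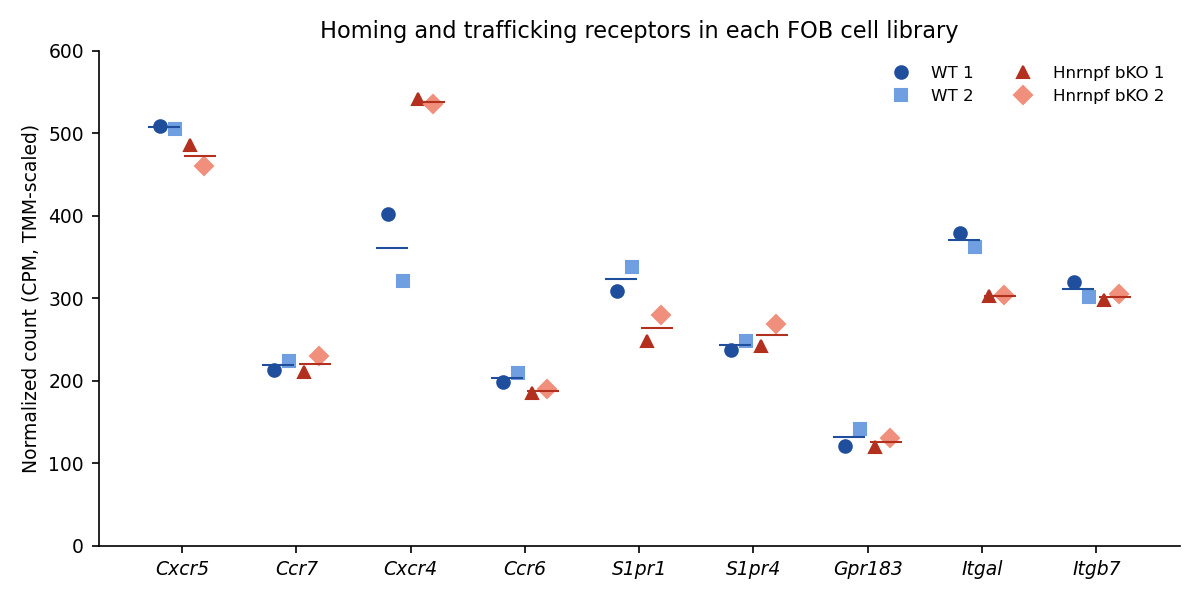
Normalized counts (CPM, TMM-scaled, linear axis from 0) of the 9 genes in the 4 FOB cell libraries; each symbol is a library and each line a group mean. Both Hnrnpf bKO libraries lie above both WT libraries for Cxcr4 and below them for Cxcr5, Ccr6, S1pr1 and Itgal.

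Among the chemokine receptors, Cxcr4 rose and the others did not pass the test. Cxcr4 (chr1:128588199-128592293 on GRCm38, minus strand), the receptor for CXCL12 that retains B cells in bone marrow and places germinal center cells in the dark zone, had WT counts of 6587 and 6104 and Hnrnpf bKO counts of 8495 and 9597. These are 402 and 320 CPM in WT and 541 and 535 CPM in Hnrnpf bKO. Both Hnrnpf bKO libraries were above both WT libraries, and the lowest Hnrnpf bKO value was 1.33 times the highest WT value, whereas the WT libraries themselves differed 1.26-fold and the Hnrnpf bKO libraries 1.01-fold. Mean levels were 361 ± 57.9 CPM (SD, n = 2) in WT and 538 ± 4.35 CPM (SD, n = 2) in Hnrnpf bKO. The log2 fold change was 0.58 (SE 0.08, 95% interval 0.40 to 0.75; edgeR's quasi-likelihood test, adjusted p = 0.000918), a 1.49-fold rise. The size of the rise depended on which WT library was used, at 0.75 without WT 1 and 0.42 without WT 2 on the log2 scale, and it was called without either one.

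Cxcr5 (chr9:44511787-44561877, minus strand), the CXCL13 receptor that brings B cells into follicles, had WT counts of 8339 and 9626 and Hnrnpf bKO counts of 7615 and 8257. Its levels were 509 and 505 CPM in WT and 485 and 460 CPM in Hnrnpf bKO, so both Hnrnpf bKO libraries were lower. The log2 fold change of Cxcr5 was -0.10 (SE 0.05) with an adjusted p of 0.265, and the 95% interval of the fold change ran from 0.866 to 1.003. Ccr7 (chr11:99144196-99155077, minus strand), the receptor for CCL19 and CCL21, had 213 and 224 CPM in WT and 211 and 230 CPM in Hnrnpf bKO. The groups overlapped for Ccr7, with a log2 fold change of 0.02 (SE 0.06, adjusted p = 0.918) and a fold-change interval of 0.927 to 1.10. Both of these intervals lie below the interval of the fold change of Cxcr4, 1.32 to 1.68.

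Ccr6 (chr17:8236043-8257141, plus strand), the CCL20 receptor found on mature B cells, had WT counts of 3241 and 3978 and Hnrnpf bKO counts of 2914 and 3403. Its levels were 198 and 209 CPM in WT and 186 and 190 CPM in Hnrnpf bKO, lower in both Hnrnpf bKO libraries, with a log2 fold change of -0.12 (SE 0.05) that did not pass the test (adjusted p = 0.239).

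Of the 9 genes, Ccr6 was the only one listed in the splicing table of the authors, with 3 rows, all of skipped exons. That table holds 1556 rows in 1173 genes, and 1017 of its rows are skipped exons. A row was present for 8.22% of all genes tested and for 14.6% of the 1803 genes of like depth, and 31 genes had 3 or more skipped-exon rows. The size and direction of these events are comparisons made by the authors and were not used, and the rows name no exon. In the GENCODE annotation, 8 of the 9 Ccr6 transcripts are coding, and 7 have the full coding sequence (367 codons). All 7 start translation at the same base, chr17:8255965, in an exon that begins 2 bases before it. In these 7 the exons upstream are therefore noncoding, and their use does not alter the annotated protein. The coding transcript without the full sequence was not examined. There are 4 annotated internal exons, of 54, 91, 202 and 115 bases, which are present in 1, 3, 1 and 4 of the 7 transcripts. Each of the 4 holds at least 1 run of 3 or more G, the letters that hnRNP F is known to bind, as do 67.3% of the 145210 annotated internal exons of coding transcripts with lengths from 54 to 202 bases. The sites that the study reported for hnRNP F in Cd40 lie in introns, and introns were not searched here. The coding exon is joined to 3 different upstream exons, and the joins are shown because they are the annotated alternatives next to the start codon. Each line gives 15 bases on either side of the join, from the GENCODE transcripts, with the start codon in capitals, and is named by the last base of the upstream exon on chromosome 17 (plus strand).
Exon ending at 8243860, in 1 transcript: caacttcacagttctgaATGaattccacag
Exon ending at 8245198, in 2 transcripts: tcagcattttctggggaATGaattccacag
Exon ending at 8255866, in 4 transcripts: ccacgcctgcctggggaATGaattccacag
The last 15 bases are the same in all 3 lines, and the first 15 differ. S1pr4 consists of a single exon, in which no exon can be skipped. The main annotated transcripts of Cxcr5, Cxcr4, S1pr1 and Gpr183 have 2 exons each, so they hold no internal exon to skip, and that of Ccr7 has 3 exons. For these genes the lack of a skipped-exon row therefore says little. Itgal, with 31 coding exons, and Itgb7, with 14, had no row.

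Among the receptors for lipids, S1pr1 fell, and S1pr4 and Gpr183 did not pass the test. S1pr1 (chr3:115710433-115715072, minus strand), the receptor through which lymphocytes exit into lymph and blood, had WT counts of 5056 and 6432 and Hnrnpf bKO counts of 3885 and 5017. At 309 and 338 CPM in WT and 248 and 280 CPM in Hnrnpf bKO, both Hnrnpf bKO libraries were below both WT libraries, with a gap of 1.10-fold between the nearest values and differences of 1.09-fold within WT and 1.13-fold within Hnrnpf bKO. The means were 323 ± 20.4 CPM (SD, n = 2) in WT and 264 ± 22.8 CPM (SD, n = 2) in Hnrnpf bKO. S1pr1 had a log2 fold change of -0.29 (SE 0.06, 95% interval -0.43 to -0.15; edgeR's quasi-likelihood test, adjusted p = 0.0156), or 0.816 of the WT level. The call was lost without WT 2 (-0.22, adjusted p = 0.0717) and without Hnrnpf bKO 1 (-0.21, adjusted p = 0.120), so 1 library in either group decided it.

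S1pr4 (chr10:81497747-81500132, minus strand), the other sphingosine-1-phosphate receptor among the 9 genes, had 238 and 248 CPM in WT and 242 and 269 CPM in Hnrnpf bKO. The groups overlapped, with a log2 fold change of 0.07 (SE 0.06, adjusted p = 0.533). Per length, S1pr4 stood at 0.982 and 0.938 of S1pr1 in WT and at 1.25 and 1.23 of it in Hnrnpf bKO. This ratio restates the levels of these genes, the fall of S1pr1 among them, and its change was not tested. Gpr183 (chr14:121952551-121965195, minus strand) had WT counts of 1982 and 2705 and Hnrnpf bKO counts of 1871 and 2350, the fewest of the 9 genes. Its levels of 121 and 142 CPM in WT and 119 and 131 CPM in Hnrnpf bKO overlapped, and its log2 fold change was -0.07 (SE 0.08, adjusted p = 0.644). Gpr183 lies wholly within Ubac2 on the other strand, and Cxcr5 overlaps Bcl9l, also on the other strand, by 110 bases. These overlaps are of whole gene spans, and overlap of exons was not examined. The strand setting of the counting is also not given in the sources used here, so whether reads were shared with these partners is not known. Ubac2 had WT counts of 1014 and 1210 and Hnrnpf bKO counts of 1043 and 1077.

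Among the integrin chains, Itgal fell and Itgb7 did not pass the test. Itgal (chr7:127296260-127335138, plus strand), the αL chain of LFA-1, had WT counts of 6205 and 6906 and Hnrnpf bKO counts of 4745 and 5456. Its levels were 379 and 363 CPM in WT and 302 and 304 CPM in Hnrnpf bKO. The groups were set apart, with the lowest WT value 1.19 times the highest Hnrnpf bKO value, against differences of 1.05-fold within WT and 1.01-fold within Hnrnpf bKO. Means were 371 ± 11.6 CPM (SD, n = 2) in WT and 303 ± 1.33 CPM (SD, n = 2) in Hnrnpf bKO. The log2 fold change of Itgal was -0.29 (SE 0.05, 95% interval -0.40 to -0.18; edgeR's quasi-likelihood test, adjusted p = 0.00373), or 0.818 of the WT level, and it was called whichever library was left out.

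The partner chain of LFA-1, Itgb2 (β2), had 188 and 178 CPM in WT and 168 and 163 CPM in Hnrnpf bKO. Both Hnrnpf bKO libraries were lower, but the log2 fold change of -0.15 (SE 0.05) did not pass the test (adjusted p = 0.125). Itgb2 had 1 skipped-exon row in the splicing table. Per length, Itgb2 stood at 1.07 and 1.06 of Itgal in WT and at 1.19 and 1.15 of it in Hnrnpf bKO. Itgb7 (chr15:102215995-102231944, minus strand), the β7 chain that pairs with α4 to bind the gut vessel ligand MAdCAM-1, had 320 and 302 CPM in WT and 297 and 305 CPM in Hnrnpf bKO. The groups overlapped for Itgb7, with a log2 fold change of -0.04 (SE 0.05, adjusted p = 0.682). Its partner Itga4 (α4) had 491 and 460 CPM in WT and 485 and 488 CPM in Hnrnpf bKO, also overlapping, with a log2 fold change of 0.03 (SE 0.05, adjusted p = 0.761).

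**Figure D2:**
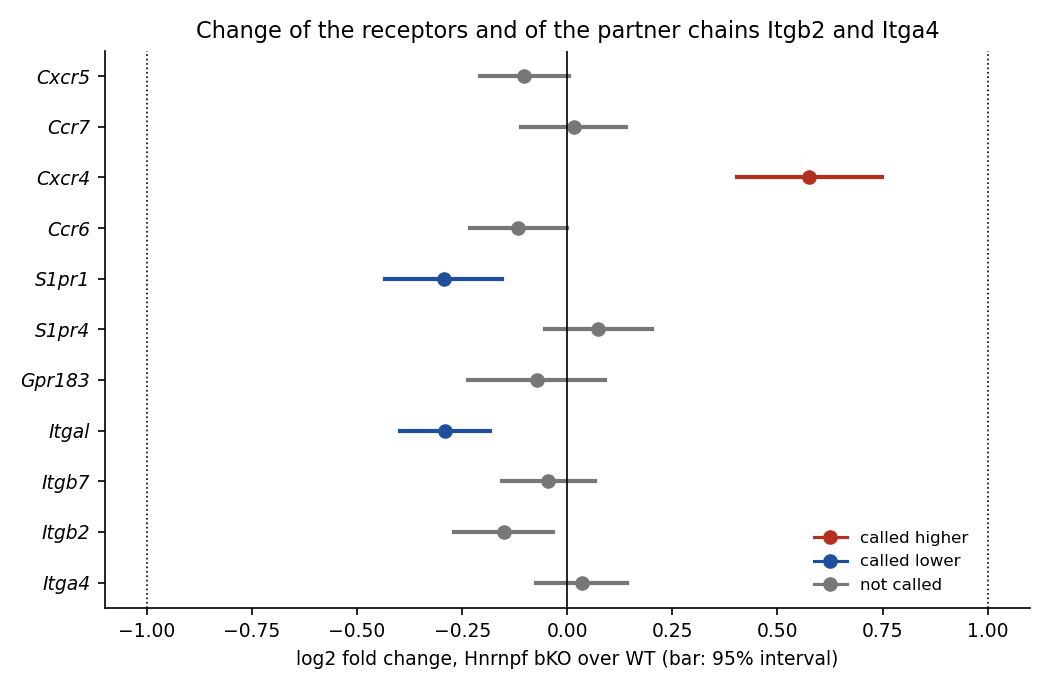
Log2 fold changes (Hnrnpf bKO over WT, horizontal axis) of the 9 genes and the partner chains Itgb2 and Itga4, with 95% intervals from edgeR; dotted lines mark a 2-fold change. Cxcr4 (0.58) is the one gene called higher, S1pr1 and Itgal (both -0.29) are called lower, and no interval reaches the dotted lines.

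Compared per length, as FPKM (deposited counts scaled to exonic length and library size), Cxcr4 was the most abundant of the 9 genes in every library, at 223 and 179 FPKM in WT and 299 and 294 FPKM in Hnrnpf bKO. Cxcr5 came next in every library, at 153 and 153 FPKM in WT and 146 and 137 FPKM in Hnrnpf bKO. Ccr7 (mean over the 4 libraries 111 FPKM), Itgb7 (110 FPKM), S1pr4 (104 FPKM), S1pr1 (96.4 FPKM) and Ccr6 (84.3 FPKM) followed, and the ranges of each neighboring pair in this run overlapped. Ccr6 (80.0 to 90.7 FPKM over the 4 libraries) overlapped S1pr1 (81.3 to 112 FPKM) but lay wholly below S1pr4, Ccr7 and Itgb7, the lowest value of which was 99.7 FPKM in S1pr4. Itgal (51.3 FPKM) and Gpr183 (44.5 FPKM) were the lowest, and their ranges overlapped too. All 9 genes lay between the percentiles 92.1 and 99.1 of the genes tested. The order was the same in both groups at its ends and moved in the middle, where S1pr1 ranked 5 and 4 in the WT libraries and 6 in both Hnrnpf bKO libraries. Cxcr4 stood at 2.19 and 1.60 times S1pr1 in WT and at 3.68 and 3.22 times S1pr1 in Hnrnpf bKO. That the ratio of these FPKM levels was higher in both Hnrnpf bKO libraries follows from the opposite calls of these genes and adds nothing to them.

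**Figure D3:**
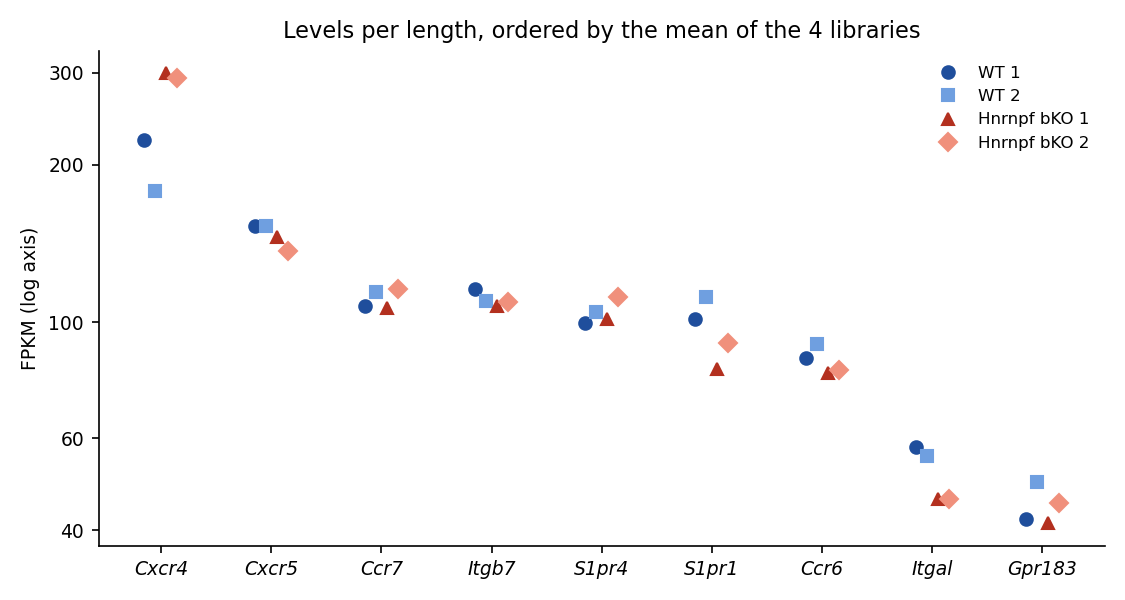
FPKM (log axis) of the 9 genes in each library, ordered by the mean of the 4 libraries. Cxcr4 and Cxcr5 stand at the top and Itgal and Gpr183 at the bottom in every library. Among the genes between these pairs, neighbors in the order overlap with each other, and Ccr6 lies below S1pr4, Ccr7 and Itgb7.

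The genes whose pattern over the 4 libraries was most like that of Cxcr4 were Zfp827, Cmtm3 and Dnase1l2. Likeness was the root mean square distance between log2 CPM values, each centred on its gene's mean, among 9874 tested genes averaging 100 counts or more, and the distances were 0.014, 0.032 and 0.039. Zfp827 had WT counts of 337 and 304 and Hnrnpf bKO counts of 431 and 485, and its log2 fold change was 0.58. Dnase1l2 had a log2 fold change of 0.62, with WT counts of 232 and 219 and Hnrnpf bKO counts of 301 and 362. Cmtm3 had WT counts of 191 and 178 and Hnrnpf bKO counts of 237 and 284. All of them share with Cxcr4 a higher level in WT 1 than in WT 2, and 4 libraries give this likeness little weight.

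Around these 9 genes, 8 lists of other homing genes were counted, 108 tested genes in all. Of these, 6 were called (5.56%, against 6.97% of all genes tested), 5 higher and 1 lower, and the median log2 fold change was -0.05. The lists mix genes as abundant as the 9, for which the share called was 16.1%, with genes of lower counts. None of the 20 tested genes of the migration machinery and none of the 7 tested transcription factors of trafficking receptors was called by edgeR, although 4 and 2 of them had an unadjusted p of at most 0.05, and DESeq2 and limma also called 0 in both lists. The migration machinery includes Dock2, Rac2 and Coro1a, and the transcription factors include Klf2 and Foxo1, which are known to drive S1pr1 and Ccr7 in lymphocytes. Klf2 had a log2 fold change of -0.04 (adjusted p = 0.709), and Foxo1 of 0.12 (adjusted p = 0.256).

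Of the 15 partner chains and adhesion receptors reported here, edgeR, DESeq2 and limma called 0, and 2 had an unadjusted p of at most 0.05 in edgeR. These are Itgb2, given above, and Pecam1, which encodes the adhesion molecule CD31 and had a log2 fold change of -0.20 (adjusted p = 0.0509). Of 17 tested genes of integrin activation, 1 was called, and it was higher. Rasgrp2, the exchange factor (CalDAG-GEFI) that turns on Rap1 ahead of LFA-1, had 824 and 784 CPM in WT and 988 and 1039 CPM in Hnrnpf bKO, with a log2 fold change of 0.33 (SE 0.05, adjusted p = 0.00140). Tln1 and Fermt3 in the same list, which encode talin and kindlin-3, had log2 fold changes of -0.08 (adjusted p = 0.338) and -0.14 (adjusted p = 0.0972).

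Of 22 tested genes of G protein signaling and receptor regulation, 3 were called, all higher. Cd69, whose product binds S1PR1 and removes it from the cell surface, had 51.2 and 51.0 CPM in WT and 78.8 and 67.0 CPM in Hnrnpf bKO. The groups did not overlap, and the log2 fold change of Cd69 was 0.51 (SE 0.08, adjusted p = 0.00294), while that of S1pr1 mRNA was negative. These data hold no protein levels, and a link between the changes of Cd69 and S1pr1 was not tested. Arrb2, a β-arrestin that takes up activated receptors, had 97.1 and 91.5 CPM in WT and 112 and 120 CPM in Hnrnpf bKO, with a log2 fold change of 0.30 (SE 0.06, adjusted p = 0.0116). Its call was lost without WT 2 (adjusted p = 0.0508). Arhgef1, the RhoA exchange factor downstream of Gα12 and Gα13, had 1652 and 1791 CPM in WT and 2039 and 2032 CPM in Hnrnpf bKO, with a log2 fold change of 0.24 (SE 0.05, adjusted p = 0.0104). Its call was lost without Hnrnpf bKO 1 (adjusted p = 0.0641). Arrb2 had 1 retained-intron row and Arhgef1 had 1 skipped-exon row in the splicing table. Sipa1, a Rap1 GTPase-activating protein with a log2 fold change of -0.11 (adjusted p = 0.172), had 7 skipped-exon rows and 2 rows of an alternative 3′ splice site, the most among the 12 tested pathway genes with a row.

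Of 12 other lipid-responding and migration receptors tested, 1 was higher and 1 was lower. S1pr3, another sphingosine-1-phosphate receptor, abundant in marginal zone B cells, had WT counts of 274 and 329 and Hnrnpf bKO counts of 189 and 227, with a log2 fold change of -0.46 (SE 0.12, adjusted p = 0.0393). The call of S1pr3 was lost with any library left out (adjusted p from 0.0682 to 0.151). Gpr34, a lysophosphatidylserine receptor, had WT counts of 50 and 61 and Hnrnpf bKO counts of 95 and 108, with a log2 fold change of 0.95 (SE 0.23, adjusted p = 0.0239). Without WT 1, Hnrnpf bKO 1 or Hnrnpf bKO 2 its adjusted p was 0.0639, 0.0740 and 0.0501. Gpr34 and S1pr3 were also not called by DESeq2 (adjusted p = 0.117 and 0.226) or under a replicate block (adjusted p = 0.0549 and 0.0751). Of 9 tested chemokine receptors other than the 4 above, edgeR, DESeq2 and limma called 0, and 1 had an unadjusted p of at most 0.05 in edgeR. All 18 receptors of that list, tested or not, had a summed level of at most 39.3 CPM in any library. Of the 16 ligands and ligand enzymes, 6 tested genes gave 0 calls by edgeR, DESeq2 and limma, with 1 at an unadjusted p of at most 0.05. The genes for the ligands CCL19, CCL20, CCL21 (Ccl21a) and MAdCAM-1 were listed at 0 in every library.

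**Figure D4:**
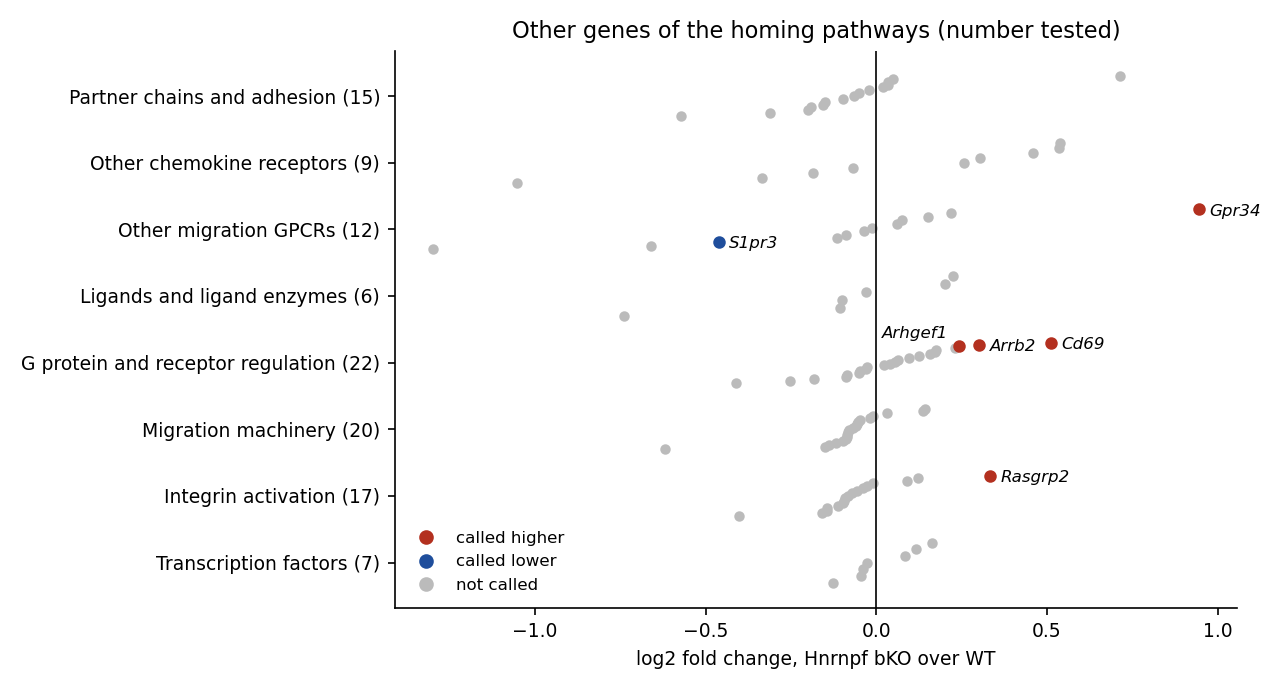
Log2 fold changes (Hnrnpf bKO over WT, horizontal axis) of 108 tested genes in 8 homing lists, 1 dot a gene, with the number tested in parentheses; vertical offsets within a list only separate the dots. The 5 genes called higher (red) and S1pr3, called lower (blue), are named, and the 20 migration machinery genes and 7 transcription factors have no called gene.

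Markers of other cells were counted beside these changes. Marginal zone B markers summed to 454 and 435 CPM in WT and 401 and 409 CPM in Hnrnpf bKO, with 1 called higher and 2 lower of 6 tested. The lower ones are S1pr3 and Dtx1. Dtx1 made up most of the sum, at 340 and 315 CPM in WT and 275 and 285 CPM in Hnrnpf bKO. The higher one is Cd1d1, at 57.5 and 65.3 CPM in WT and 76.5 and 79.3 CPM in Hnrnpf bKO, so the called members went both ways. Follicular B markers summed to 6988 and 7003 CPM in WT and 7391 and 7413 CPM in Hnrnpf bKO, with 2 called higher and 1 lower of 4. The higher ones are Fcer2a, given above, and Ighd, at 2791 and 3023 CPM in WT and 3568 and 3486 CPM in Hnrnpf bKO. The lower one is Cr2, which follicular B cells carry at a lower level than marginal zone B cells, and it is not counted in the marginal zone list. Myeloid markers summed to 21.5 and 25.6 CPM in WT and 27.7 and 39.1 CPM in Hnrnpf bKO, with 2 of 6 called higher, S100a8 and S100a9. Dendritic cell markers summed to 12.2 and 15.5 CPM in WT and 21.5 and 27.1 CPM in Hnrnpf bKO, with 1 of 3 called higher. That one is Flt3, at 8.55 and 10.8 CPM in WT and 17.6 and 24.3 CPM in Hnrnpf bKO, most of the list's sum. The uncalled members of both lists went either way. Log2 fold changes were negative for Cd68 (-0.55), Csf1r (-0.21) and Itgax (-0.57) and positive for Lyz2 (0.56), Itgam (0.71) and Siglech (0.56). Germinal center markers summed to 176 and 208 CPM in WT and 162 and 157 CPM in Hnrnpf bKO, with 0 of 5 called by edgeR, DESeq2 or limma and 1 at an unadjusted p of at most 0.05. T cell markers summed to 77.9 and 96.4 CPM in WT and 66.7 and 78.8 CPM in Hnrnpf bKO, with 0 of 7 called by edgeR, DESeq2 or limma and 1 at an unadjusted p of at most 0.05. Plasma cell, NK cell, and erythroid and platelet markers gave 0 calls by any of these tools and 0 at that unadjusted p. Of the transitional markers, 1 of 2 tested was called higher, while the list, most of it Vpreb3, summed to between 72.5 and 80.2 CPM in all 4 libraries. The called one is Cd93, named after its values were seen, which encodes the antigen that the sort excludes, with 8.43 and 11.7 CPM in WT and 16.6 and 19.7 CPM in Hnrnpf bKO, and its log2 fold change was 0.85 (adjusted p = 0.00661). Rag2 and Ccl19 were at 0 in every library, and the stromal Col1a1 and Cxcl13 had at most 2 counts. The stromal list also holds Pecam1, which made up nearly all of its sum. Pecam1 had 323 and 324 CPM in WT and 296 and 267 CPM in Hnrnpf bKO, and it was not called. The part of these markers in the changes of Cxcr4, S1pr1 and Itgal was not tested.

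The 3 calls were looked at under 11 other settings of the same comparison. Every setting kept the sign of Cxcr4, S1pr1 and Itgal. DESeq2 gave the log2 fold change of Cxcr4 an SE of 0.16, against 0.08 in edgeR. It called all 3 genes, with adjusted p of 0.0149 for Cxcr4, 0.00399 for S1pr1 and 0.000126 for Itgal. Limma on log2(FPKM + 0.1), on whose scale fold changes of low genes are understated, called none of them, with adjusted p of 0.110 for Cxcr4, 0.166 for S1pr1 and 0.0783 for Itgal and log2 fold changes of 0.57, -0.31 and -0.30. That fit called 45 genes in all, whereas edgeR called 985 and DESeq2 617.

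**Figure D5:**
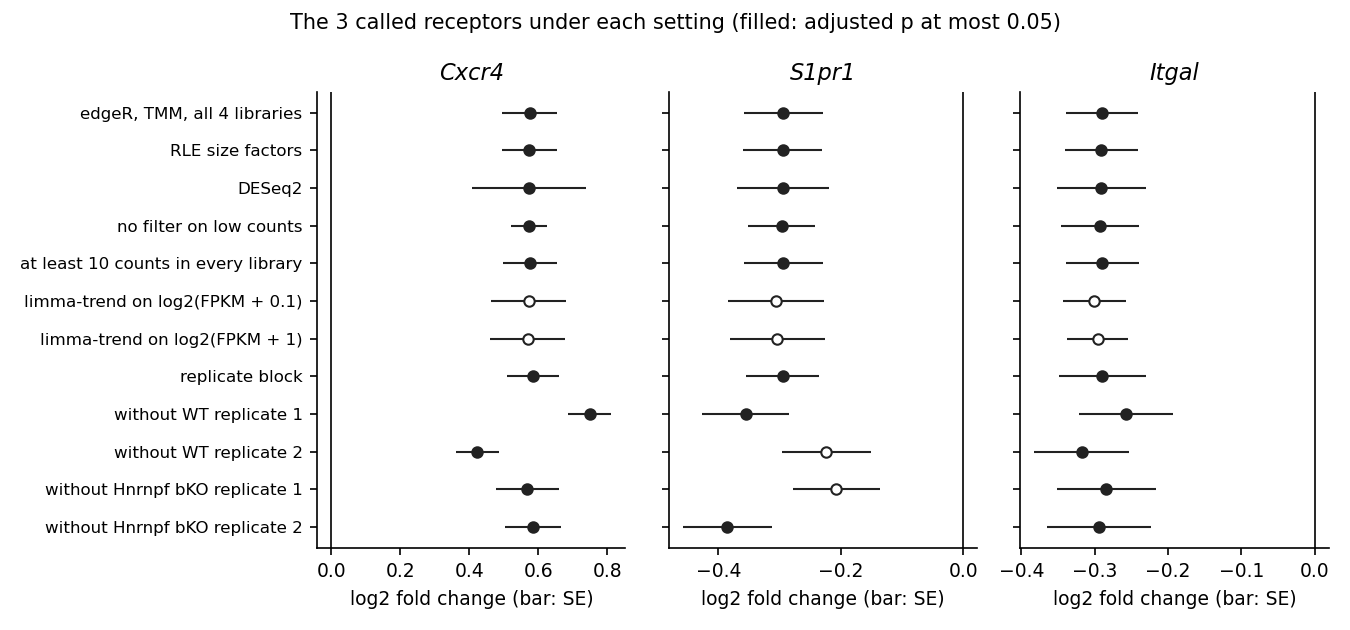
Log2 fold changes (Hnrnpf bKO over WT, horizontal axes, scaled separately) with SE for Cxcr4, S1pr1 and Itgal under the reported fit and 11 other settings; filled symbols have an adjusted p of at most 0.05 and open ones do not. Both limma fits leave all 3 genes open, and S1pr1 is also open without WT 2 and without Hnrnpf bKO 1.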

How the data were processed

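The 4 libraries of sorted FOB cells were grouped by the genotype in their labels (2 WT, 2 Hnrnpf bKO). Per the submitters' processing notes and the study's methods, the authors trimmed paired-end reads with cutadapt 1.9.1, aligned them to GRCm38 with HISAT2 2.0.1 and counted them per gene with HTSeq 0.6.1. The deposited counts are whole numbers without normalization. FPKM, deposited beside the counts, is the authors' own scaling of them by exonic gene size and library total, and those gene sizes are deposited too. The authors' rMATS table holds events they called, with their FDR and inclusion level difference, and only gene names and event types were used here.

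Counts were compared with edgeR 4.0.16 in R 4.3.3 (TMM, filterByExpr, quasi-likelihood test, Benjamini-Hochberg over 14123 genes, with calls made at adjusted p ≤ 0.05). The common dispersion gave a coefficient of variation of 5.90% between libraries, and counts of the 9 genes ran from 1871 to 9626. Within each pair, library counts differed beyond sampling noise (chi-square per degree of freedom 4.30 and 3.86). Alternatives were RLE size factors, DESeq2 1.42.0, other filters on low counts, limma-trend 3.58.1 on FPKM values with a pseudocount of 0.1 or 1 (mean FPKM 0.5 or more), a replicate block, each library left out, and stricter calls. For the other homing genes, these settings were added after seeing the data. The scripts were tested on simulated data.

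The 9 genes and all lists were chosen with earlier results of these data known, and 3 genes of the lists are not reported here. The named genes are these 9, Hnrnpf, Itgb2, Itga4, the called genes of each homing list averaging 10 counts or more (at most 5 in each direction), and the 3 genes most like the gene with the smallest adjusted p. Exceptions, chosen after their values were seen, are Cr2, Cd93, Vpreb3, Ubac2, Pecam1, Klf2, Foxo1, Tln1, Fermt3 and Sipa1. So are the members named in the marker lists and genes given as list members or as markers at or near 0. Gene positions equal those of GENCODE M21, from which exons and transcripts were taken with Python 3.11.15.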

Additional observations from a re-analysis of the deposited data

How the results depend on the processing

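The 9 genes gave 99 values under other settings, of which 87 kept their sign and side of the threshold, 8 lost a call and 4 changed sign. The sign changes came with a library left out, and none was called: on the log2 scale Ccr7 ran from -0.049 to 0.079 (negative without WT 1 or Hnrnpf bKO 2), S1pr4 from -0.0022 to 0.147 (negative without Hnrnpf bKO 2) and Gpr183 from -0.181 to 0.052 (positive without WT 2). The partner chain Itga4 ran from -0.0082 (without WT 2) to 0.083. Genes called higher among the 9 numbered 1, and 0 with either limma fit or a fold of at least 2. Genes called lower numbered 2, 0 with either limma fit or that fold, 1 at adjusted p ≤ 0.01, and 1 to 2 with a library left out. Other homing genes called higher numbered 5, 0 with either limma fit or that fold, 2 at adjusted p ≤ 0.01, 4 with DESeq2, 4 with the replicate block, and 3 (without Hnrnpf bKO 1) to 5 with a library left out. Other homing genes called lower numbered 1, 2 with RLE size factors or at least 10 counts in every library, 3 with no filter, 0 with DESeq2, either limma fit, the replicate block or either stricter call, and 0 to 2 with a library left out. All genes called numbered 985, 617 with DESeq2, 45 and 41 with limma on log2(FPKM + 0.1) and log2(FPKM + 1), 127 with a fold of at least 2, and 392 at adjusted p ≤ 0.01. Why limma called fewer genes was not tested.

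The replicate block called 612 genes in all and the same 1 higher and 2 lower of the 9. The labels number the libraries but name no pairing, and the numbers were not taken as pairs. Deviations of WT 1 and Hnrnpf bKO 1 from their group means had a correlation of -0.081 over 9875 genes. Among the 9 genes, these deviations went the same way in 7. With a library left out, the lone library is assumed to vary like the other group. With 2 libraries a group, changes as small as those of Cxcr5 and Ccr6 were not called at this depth.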
